A study of Homo sapiens with 2 samples.

Results

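The genes that set the iron balance of a cell were examined in the binding data of Musashi-2 (MSI2), an RNA-binding protein of blood stem cells and leukaemias. The cells were NB4, an acute promyelocytic leukaemia line of human origin. The genes are IREB2 (ENSG00000136381), ACO1 (ENSG00000122729), TFRC (ENSG00000072274), FTH1 (ENSG00000167996) and FTL (ENSG00000087086). All peaks listed under these 5 gene IDs were taken, which came to 45 of 25920 peaks in replicate 1 and 36 of 25243 in replicate 2. The method was CLIP-seq, in which ultraviolet light joins a protein to the RNA it touches and the bound RNA is recovered with an antibody and sequenced. The labels give 1 group of 2 replicates without further treatment, with equal numbers of NB4 cells, crosslinked at 400 mJ/cm2 and recovered with the same anti-MSI2 antibody. IREB2 was chosen by its number of peaks found in both replicates, which is among the highest, and the other 4 genes were taken for their part in iron balance. The counts of such peaks are therefore a description and none is tested.

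Cells hold free iron within narrow bounds through a pair of RNA-binding proteins, the iron regulatory proteins. IREB2 encodes iron regulatory protein 2, which is broken down when iron is plentiful, and ACO1 encodes iron regulatory protein 1, which turns into the cytosolic aconitase when it carries an iron-sulphur cluster. When iron is scarce both proteins bind hairpins called iron-responsive elements. In the ferritin messages FTH1 and FTL these hairpins lie in the 5′ untranslated region and binding blocks translation, whereas in the message of the transferrin receptor TFRC they lie in the 3′ untranslated region and binding protects the message from decay.

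The 5 genes differed widely in how many MSI2 peaks they carried, and IREB2 and TFRC had the most in both replicates. IREB2 had 21 peaks in replicate 1 and 16 in replicate 2, and TFRC had 14 and 16. ACO1 had 6 and 2 peaks and FTH1 had 3 and 2. FTL had 1 peak in replicate 1 and none in replicate 2. So 4 of the 5 genes had peaks in both lists, as did 63.1% of all gene IDs seen in either, and the same 4 had a peak at a shared place, against 55.2% of the gene IDs of replicate 1. A peak count also depends on the length and the amount of the message, neither of which was measured here, so these counts do not rank the genes by binding. No RNA-seq, input or control-antibody library was analysed here, so more MSI2 on a message and more of the message cannot be told apart.

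**Figure D1:**
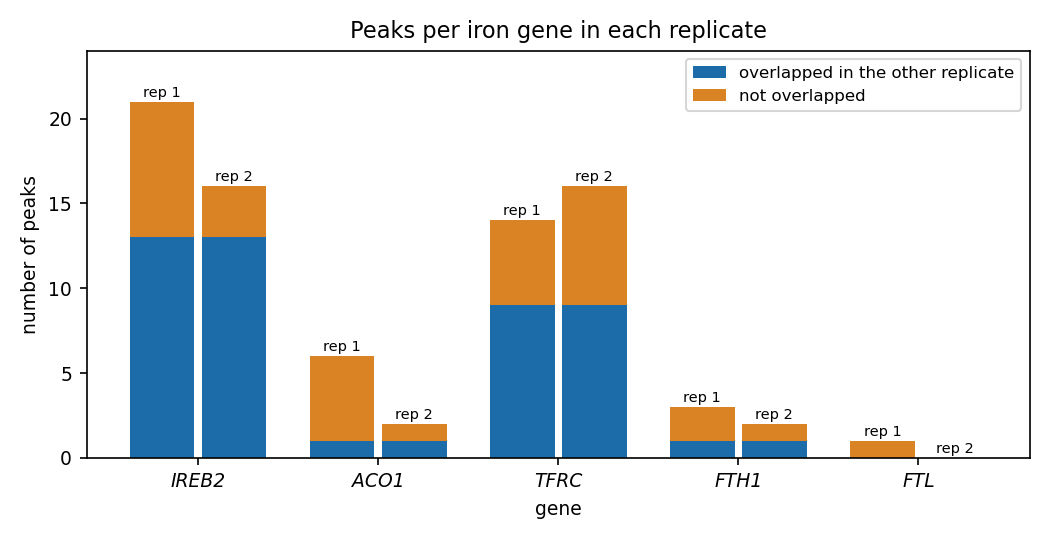
Number of MSI2 peaks (vertical axis) listed under each iron gene (horizontal axis) in replicates 1 and 2, split into peaks overlapped by a peak of the other replicate (blue) and peaks that were not (orange). IREB2 and TFRC carry 14 to 21 peaks in each replicate and the other 3 genes 0 to 6.

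Shared peaks were those that met a peak from the other list on their own strand over at least 1 nt. Of the 45 peaks of the 5 genes in replicate 1, 24 were shared, or 53.3% (95% Wilson interval 39.1% to 67.1%), against 35.7% of all peaks in that list. Of the 36 in replicate 2, 24 were shared, or 66.7% (50.3% to 79.8%), against 37.3% of all peaks. IREB2 and TFRC held 22 of the 24 shared peaks of replicate 1, and since IREB2 was chosen for its shared peaks, these shares are no independent result. The intervals cover counting error only, since peaks of one gene are not independent. The labels do not say that the replicates came from separate cultures, so the spread between them may be technical.

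IREB2 had 13 shared peaks among its 21 in replicate 1, or 61.9% (40.9% to 79.2%), and 13 among its 16 in replicate 2, or 81.2% (57.0% to 93.4%). Of the 8801 gene IDs with a peak in either list, 9 had more shared peaks of replicate 1 than IREB2. Just inside and outside that count, 4 gene IDs including IREB2 had 13 shared peaks, 2 had 14 and 14 had 12. The shared peaks were not all matched singly. In replicate 1, 1 peak met a touching pair of replicate 2 peaks at 78765584 to 78765598 of chromosome 15, and a pair of replicate 1 peaks fell under a single replicate 2 peak at 78786484 to 78786522. Genes with a like number of peaks gave a lower share as a rule: among 69 gene IDs with 17 to 25 peaks in replicate 1 the median share was 47.1% (interquartile range 34.8% to 58.8%), and 12 of them lay above IREB2. Among 170 gene IDs with 13 to 19 peaks in replicate 2 the median was 39.2%, and 3 lay above IREB2. Both sets include IREB2. As IREB2 was chosen for its number of shared peaks, its place above these medians was set by that choice and is no independent result.

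IREB2 peaks that were weak in 1 list were overlapped in the other more often than weak peaks of the lists as a whole. Strength was read from the last number in the name of a peak, its tally, which is never under 3 and tends to be larger where the deposited p is smaller, with exceptions among the peaks described here. It may count reads, but nothing in the files or labels states this. In replicate 1, 5 of the 8 IREB2 peaks with a tally of 3 to 4 were shared, against 16.4% of all such peaks. In replicate 2 it was 8 of 9, against 21.1%. A peak that was weak in 1 list could meet a stronger one in the other. Among the shared weak peaks of replicate 2 were partners of replicate 1 peaks with tallies of 6, 8, 9 and 12. The shares also count each peak of the touching pair in replicate 2, and each of the pair of replicate 1 peaks under a single replicate 2 peak. They are therefore no count of separate weak sites. At tallies of 5 to 9 IREB2 was close to the lists, with 5 of 9 shared in replicate 1 against 47.6% and 3 of 5 in replicate 2 against 57.4%. At 10 or more, 3 of 4 peaks were shared in replicate 1, against 87.1%, and 2 of 2 in replicate 2, against 89.4%. TFRC had no peak below a tally of 5 in replicate 1, and its 3 such peaks in replicate 2 were all unshared. These shares rest on few peaks and on the measure that chose IREB2, so they describe the gene and are not tested.

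**Figure D2:**
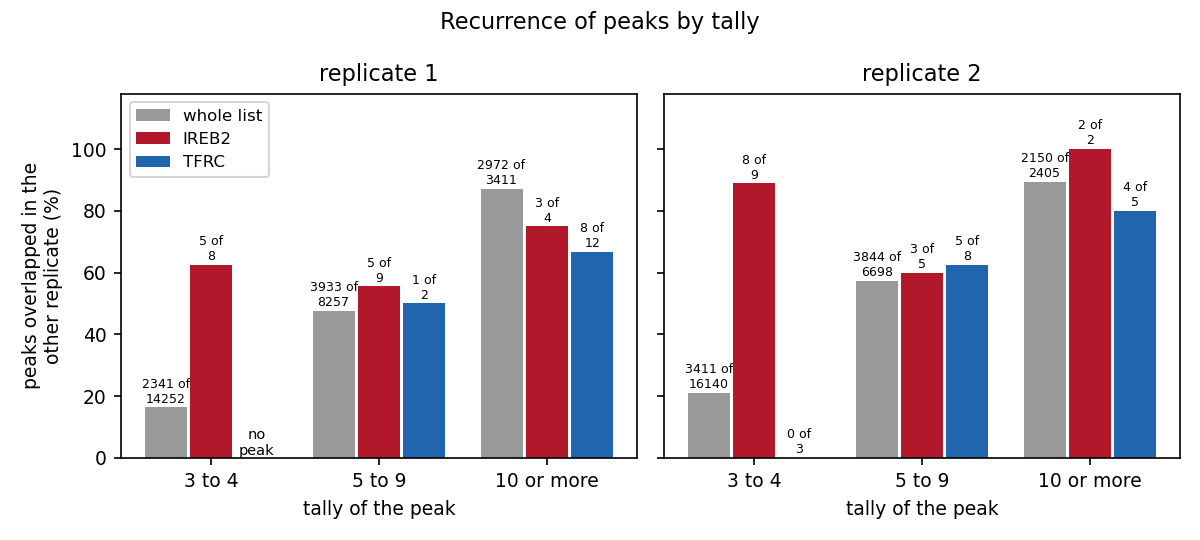
Percentage of peaks overlapped in the other replicate (vertical axis) for peaks with a tally of 3 to 4, 5 to 9 and 10 or more (horizontal axis), for the whole list (grey), IREB2 (red) and TFRC (blue), with the number of peaks above each bar. The IREB2 bars at a tally of 3 to 4, 62.5% and 88.9%, stand far above the grey bars at 16.4% and 21.1%.

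The place of IREB2 among the genes with the most shared peaks rested on these weak peaks. With only peaks of a tally of 5 or more in both lists, IREB2 kept 13 peaks in replicate 1 and 7 in replicate 2, of which 4 of replicate 1 were shared, and 208 gene IDs then had more. TFRC kept 9 shared peaks under that minimum, and the number of gene IDs with more went from 57 to 20. With the stronger 50% of each list by the deposited p, IREB2 had 5 shared peaks and TFRC again 9.

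The IREB2 peaks lay on the plus strand of chromosome 15 (hg19) between 78755336 and 78792565, a span of 37.2 kb. Peaks within 500 nt of each other formed 10 groups along it, of which 7 held peaks of both replicates, 2 held only replicate 1 and 1 held only replicate 2. Reading from the 5′ end, replicate 1 alone had a lone weak peak at the start of the span, with a tally of 4. The next group, at 78764156 to 78764268, had touching peaks with tallies of 10 and 7 in replicate 1 and a single peak with a tally of 5 in replicate 2, which overlapped only the weaker of them. The stronger ended 9 nt before the replicate 2 peak began. Further groups followed at 10.2, 13.2 and 15.3 kb from the 5′ end of the span. After them came a stretch of 10.6 kb without a peak in either list, from 78775750 to 78786388, preceded by a replicate 1 peak with a tally of 7 at 78775694 to 78775749 that had no counterpart within 5029 nt.

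Beyond the empty stretch, IREB2 showed its most closely repeated weak group. At 78786389 to 78786522, a stretch of 134 nt, replicate 1 had 3 peaks, each with a tally of 3, and replicate 2 had 2 peaks, each with a tally of 4. All 5 were shared. The group summed to a tally of 9 in replicate 1 and 8 in replicate 2. Their p-values in the authors' deposited lists were between 0.0197 and 0.0215 in replicate 1, at ranks 16248 to 17659 of 25920 from the strongest. In replicate 2 they were 0.00438 and 0.00675, at ranks 8499 and 10656 of 25243.

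The 3′ end of the IREB2 span carried most of its tally. The 3′-most 10% of the span, 3.72 kb long, held 9 of 21 peaks and a summed tally of 74 out of 136 (54.4%) in replicate 1, and 8 of 16 peaks and 46 out of 81 (56.8%) in replicate 2. The densest group there ran over 897 nt from 78790384 to 78791280. In it the peak at 78791110 to 78791163 had a tally of 12 and a deposited p of 2.71e-07 in replicate 1, and its partner at 78791110 to 78791170 reached a tally of 11 (p 2.94e-07). This was the best matched strong site of the gene, with the same first base in both lists. Its neighbour at 78791234 to 78791280 had an equal tally of 12 in replicate 1 but 3 in replicate 2, where the peak was narrowed to 78791262 to 78791279. At the far 3′ end the order was turned, with a tally of 6 at 78792367 to 78792420 in replicate 1 and 10 at 78792375 to 78792450 in replicate 2.

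**Figure D3:**
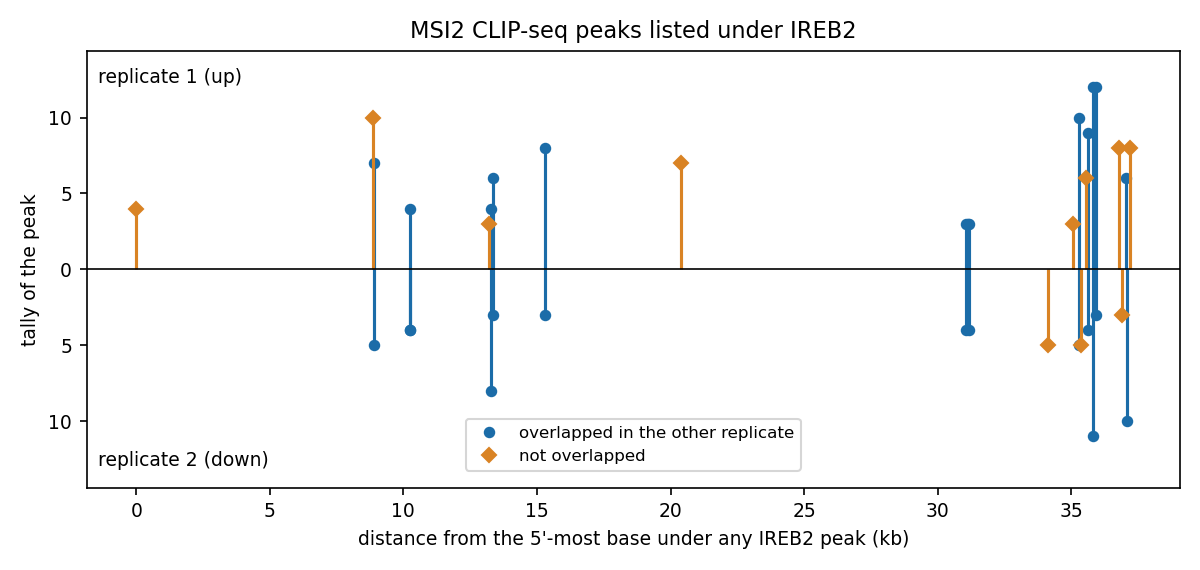
IREB2 peaks by distance from the 5′-most base under any of its peaks (horizontal axis, kb) and tally (vertical axis), with replicate 1 drawn upwards and replicate 2 downwards, shared peaks in blue and unshared ones in orange. Peaks of both replicates line up at 8.9 to 15.3 kb, at 31.1 kb and from 35.3 to 37.1 kb, with an empty stretch before 31.1 kb.

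The peaks of IREB2, and its shared peaks as well, were split between the 3′ end and the inner part of the span. Over the gene IDs whose peaks span 10 kb or more, 45.2% of all peaks of replicate 1 and 54.6% of the shared ones lay in the 3′-most 10%. For IREB2 these were 9 of 21 peaks and 5 of 13 shared peaks. In replicate 2 the shares were 42.2% and 54.4%, and IREB2 had 8 of 16 peaks and 5 of 13 shared peaks there. Relative position runs from 0 at the 5′ end of the span to 1 at its 3′ end. The median for the shared IREB2 peaks was 0.84 in replicate 1 and 0.83 in replicate 2. The median of gene medians for shared peaks was 0.94 in both lists. Of the 13 shared IREB2 peaks, 8 lay in the inner part of the span, upstream of the last 10%. With a tally of 5 or more the shared IREB2 median moved to 0.95. Over all peaks, shared or not, the order was turned. The IREB2 medians were then 0.84 in replicate 1 and 0.88 in replicate 2, against medians of gene medians of 0.81 and 0.77. A span here runs from the first to the last peak, so an outermost peak lies at its end by definition. This weighs more for gene IDs with few peaks, so the shares and medians over the lists are no like measure for IREB2. Exon positions of hg19 were not used, so a peak is not placed in an exon, intron or untranslated region.

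The unshared peaks of IREB2 were set against the nearest peak of the other library under the same gene ID. Of the 8 unshared peaks of replicate 1, 5 had a replicate 2 peak within 100 nt and 6 within 500 nt, and of the 3 unshared peaks of replicate 2, 2 had one within 100 nt. Over all unshared peaks of the lists, 12.6% in replicate 1 and 12.8% in replicate 2 had one within 100 nt, and 31.7% and 31.6% within 500 nt. These shares include peaks of gene IDs absent from the other list, which cannot have such a neighbour and so lower the shares. A gene with many peaks leaves less room between them. TFRC, with a like number of peaks, had 0 of 5 within 100 nt in replicate 1 and 4 of 7 in replicate 2. The running numbers in the peak names give a further detail. They were unbroken from 0 to 20 in replicate 1, whereas replicate 2 skipped 3 of 19 numbers, namely 0, 4 and 8. The replicate 1 peaks that bear those numbers, at 78755336, 78768535 and 78775694, were all unshared, and the numbers of the shared peaks on either side of the last pair of skips matched between the lists. The sources used here do not say what a skipped number stands for. In the whole lists 8.77% of the numbers were skipped in replicate 1 and 9.52% in replicate 2.

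The gene IDs whose peaks were most like those of IREB2 were found by the distance over 3 measures, each as log2 of 1 plus the peaks of replicate 1, the peaks of replicate 2 and the shared peaks, in 2 samples and among 8800 other IDs. The nearest was ENSG00000110321 on the minus strand of chromosome 11, with 23 and 15 peaks and 12 shared, at a distance of 0.19. ENSG00000135316 on the minus strand of chromosome 6, with 19 and 15 peaks and 14 shared, also came to 0.19. The other was ENSG00000115053, whose peaks lie from 232319463 to 232326678 on chromosome 2 (minus strand). It had 18 and 16 peaks and 12 shared, at 0.24. IREB2 had the lowest summed tally of these 4 genes, at 136 and 81 against 271 and 126, 202 and 156, and 166 and 122. The files do not pair these IDs with names.

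ACO1, the paralogous regulator, had a single repeated site. On the plus strand of chromosome 9, the peak at 32424544 to 32424609 had a tally of 10 (deposited p 2.26e-07) in replicate 1, and its partner at 32424544 to 32424616 had a tally of 9 (p 1.86e-06) in replicate 2. Both began at the same base, and the short inner intervals that the lists give within each peak were centred 10 nt apart. The other 5 peaks of replicate 1 all had the lowest tally, 3, and none was shared. The same held for the other peak of replicate 2, at 32433724 to 32433767, which lay 6402 nt from any ACO1 peak of replicate 1. ACO1 therefore had 1 shared peak, against 13 for IREB2, and its share in replicate 1 of 16.7% (3.01% to 56.4%) is too imprecise to set apart from the 35.7% of the list. Its site was as strong as the better IREB2 sites, and it stayed among the strongest 10% of both lists, as did 1 IREB2 site.

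TFRC, the receptor that takes up transferrin-bound iron, had the strongest peaks of the 5 genes. Its tallies ran from 6 to 54 in replicate 1, with a median of 13, and from 3 to 31 in replicate 2, with a median of 8.5, where the median of each whole list was 4. In replicate 1, 9 of 14 peaks were shared, or 64.3% (38.8% to 83.7%), and in replicate 2, 9 of 16, or 56.2% (33.2% to 76.9%). Over the whole lists the shares were 35.7% and 37.3%. Strong peaks are shared more often, and among those with a tally of 10 or more TFRC lay below the lists. In replicate 1, 8 of 12 such TFRC peaks were shared, against 87.1%, and in replicate 2, 4 of 5, against 89.4%. These shares rest on few peaks and are not tested. All TFRC peaks lay on the minus strand of chromosome 3 between 195776160 and 195802167, a span of 26.0 kb, so that lower coordinates are nearer the 3′ end. The top peak, at 195777195 to 195777294, had a tally of 54 in replicate 1, and its deposited p of 1.28e-31 ranked 30 of 25920. Its partner at 195777203 to 195777259 had a tally of 31, and its p of 1.89e-19 ranked 114 of 25243. This was the strongest TFRC site in both lists.

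Toward the 5′ end of its span TFRC carried a row of moderate single sites that recurred. Distances here are counted from the 5′-most base under any TFRC peak, as the start of the gene itself was not located. In the first 12.4 kb, replicate 1 had 5 peaks, at 0.026, 3.84, 7.77, 9.72 and 12.4 kb from that base, and all 5 were shared. Their tallies were 11, 12, 6, 12 and 12 in replicate 1, and those of their partners were 6, 9, 8, 5 and 9 in replicate 2. They were spaced kilobases apart, each about 8 to 59 nt wide in replicate 1. The site at 7.77 kb met its partner by a single base, so its sharing depends on the overlap asked for. Replicate 2 added unshared weak peaks between and beside them, with tallies of 3 to 5.

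Peaks called at the 3′ end of the TFRC span differed between the libraries. In the 3′-most 10% of the span, which is 2.60 kb, replicate 1 had 8 peaks with a summed tally of 195 over 516 nt covered, and replicate 2 had 5 peaks with a sum of 86 over 220 nt. The ratio of replicate 2 to replicate 1 was 0.44 there and 1.13 over the rest of the span, where the sums were 60 and 68 over 250 and 296 nt. These sums run over peaks called separately in each list. Per 10 nt covered, the tally in the 3′-most 10% was 3.78 in replicate 1 and 3.91 in replicate 2. A replicate 2 peak with a tally of 9, at 195778830 to 195778860, lay just outside the cut, at a relative position of 0.897. The ratio above 1 in the rest of the span depends on counting that peak there. Over the shared peaks alone the parts were closer, with sums of 123 and 73 over 4 sites in the 3′-most 10%, a ratio of 0.59, and of 53 and 37 over 5 sites in the rest, a ratio of 0.70. At all 4 shared sites of the 3′-most 10% the tally was lower in replicate 2. The wider gap between the parts thus appears with the unshared peaks included. The whole lists summed to 155598 and 133644, a ratio of 0.86. With 1 library for each replicate, these differences have no further check.

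Strong TFRC peaks were missing from replicate 2 in one stretch. Between the replicate 2 peaks that end at 195777259 and begin at 195778714 lay 1454 nt without a replicate 2 peak, and inside it replicate 1 had 3 peaks. They lay at 195777524 to 195777572 with a tally of 21, at 195778014 to 195778051 with a tally of 14, and at 195778085 to 195778159 with a tally of 25. Over the whole list of replicate 1, 93% of the 1644 peaks with a tally of 14 or more were shared and 115 were not, so 3 of these 115 lay in this stretch of TFRC. The deposited p-values of the 3 peaks ran from 7.02e-11 to 1.24e-06. No running number of a TFRC peak was skipped in either list, so the skips seen under IREB2 in replicate 2 did not mark this stretch. A further unshared peak of this part, at 195776160 to 195776214, had a tally of 12 and was the 3′-most peak of the gene. Replicate 2 in turn had an unshared peak with a tally of 13 at 195776918 to 195776953, which fell between shared sites and within 28 nt of one of them.

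**Figure D4:**
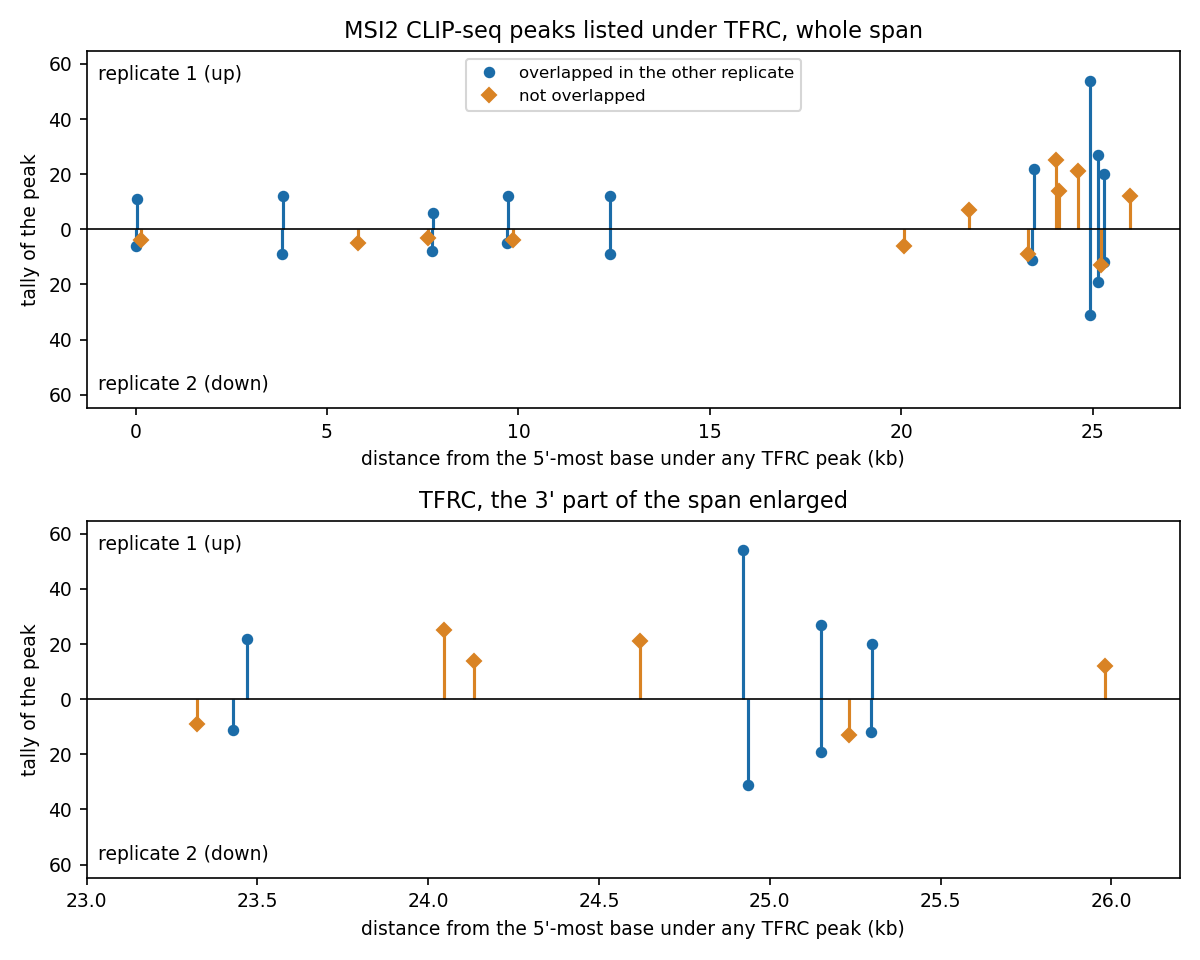
TFRC peaks by distance from the 5′-most base under any of its peaks (horizontal axis, kb) and tally (vertical axis), with replicate 1 drawn upwards and replicate 2 downwards, shared peaks in blue and unshared ones in orange; the lower panel enlarges the 3′ part. Replicate 1 peaks with tallies of 25, 14 and 21 have no partner below them, next to the shared top site with tallies of 54 and 31.

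At the shared sites the tallies of TFRC were lower in replicate 2 in 8 of 9 pairs, with a median log2 ratio of replicate 2 over replicate 1 of -0.74. In IREB2, 7 of 13 pairs were lower, 5 higher and 1 equal, with a median log2 ratio of -0.13. Among the higher ones, the replicate 1 peaks at 78786484 and 78786498, each with a tally of 3, met the same replicate 2 peak with a tally of 4. The equal pair leaves out a touching replicate 2 peak, also with a tally of 4, so the IREB2 pairs are not independent. Over all 9246 shared pairs of the lists, 55.3% were lower in replicate 2 and the median was -0.22. The median replicate 1 tally was 7 over all pairs, 12 for the TFRC pairs and 6 for the IREB2 pairs. No tally is under 3, so a pair with 3 in replicate 1 cannot be lower in replicate 2. The genes and the lists are thus not compared at like tallies. Single IREB2 sites ranged from 4 times the tally in replicate 1 (12 against 3) to 2 times the tally in replicate 2 (8 against 4). In the place of the sites, the inner intervals of IREB2 pairs were centred a median of 6 nt apart, against 7 nt over all pairs of the lists. Of the IREB2 pairs, 10 of 13 lay within 10 nt, where 66.9% of all pairs did. TFRC pairs were a median of 12 nt apart, and 4 of 9 lay within 10 nt.

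**Figure D5:**
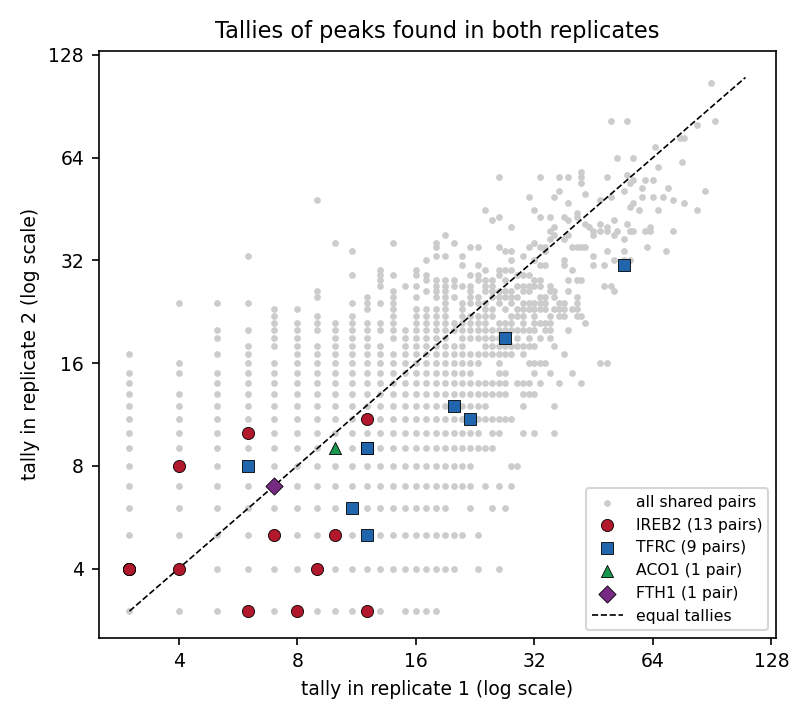
Tally in replicate 2 (vertical axis, log scale) against tally in replicate 1 (horizontal axis, log scale) for every pair of overlapping peaks in the lists (grey) and for those of IREB2, TFRC, ACO1 and FTH1 (coloured), with a dashed line at equal tallies. TFRC lies below the line in 8 of 9 pairs, and 3 IREB2 pairs coincide at tallies of 3 and 4.

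The ferritin genes, whose products form the shell that stores iron, carried fewer MSI2 peaks than IREB2 and TFRC. For FTH1 the count was not low beside the lists. Of the 7252 gene IDs of replicate 1, 2528 had more peaks than FTH1 and 2069 had more shared peaks. Of the 7101 gene IDs of replicate 2, 3276 had more peaks than FTH1. In replicate 1, 4804 gene IDs had more peaks than FTL. FTH1, the heavy chain, lay on the minus strand of chromosome 11 and had 1 shared site. It was listed at 61732534 to 61732585 in replicate 1 and at 61732529 to 61732585 in replicate 2, with a tally of 7 in both and p-values of 8.09e-05 and 8.23e-05. The inner intervals of this pair were centred 0 nt apart. No other of the 24 shared pairs had both equal tallies and inner intervals centred on the same base. Replicate 1 had weaker peaks on each side of it, with tallies of 3 and 5. Replicate 2 had instead a peak with an equal tally of 7 near the 5′ end of the span, at 61734956 to 61735009, which lay 2111 nt from any FTH1 peak of replicate 1. Its numbering also skipped 1 of 3 numbers, the number 0, which in replicate 1 belonged to the unshared peak at 61732239.

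FTL, the light chain, had the fewest peaks of the 5 genes. Its single peak, at 49468701 to 49468717 on the plus strand of chromosome 19, had the lowest tally, 3, and a deposited p of 0.0327 in replicate 1, and no FTL peak was listed in replicate 2. Peaks with a tally of 3 made up 35.7% of replicate 1 and 45.3% of replicate 2, so this is the commonest kind of peak in the lists. Ferritin genes have processed copies elsewhere in the genome, and the sources used here do not say how reads that fit several places were treated, so the few ferritin peaks are uncertain. The absence of a peak shows only that none was called.

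Set against the length over which peaks were spread, TFRC had the highest summed tally in both replicates, at 9.80 and 5.92 per kb of its span. FTH1 followed with 5.41 and 5.05, then IREB2 with 3.65 and 2.18 and ACO1 with 1.60 and 0.77. The nearest values of TFRC and FTH1 lay 0.51 apart, less than the spread of TFRC between replicates (3.88). Those of FTH1 and IREB2 lay 1.40 apart, against a spread of 1.48 for IREB2, and those of IREB2 and ACO1 lay 0.58 apart, against 1.48 and 0.83. The order itself was the same within each library, and these gaps across libraries take no account of what the genes of 1 library share. The spans are set by the outermost peaks. That of FTH1, 2.77 kb, reaches its full length only through an unshared replicate 2 peak, and all other FTH1 peaks lie within 606 nt. The place of FTH1 in the order thus depends on that peak. The spans include introns and FTL has none to divide by, so this order is a description of the lists. The 5 genes summed to a tally of 434 over 1741 nt covered in replicate 1 and 261 over 1282 nt in replicate 2, or 2.49 and 2.04 per 10 nt covered, a ratio of the sums of 0.60 against 0.86 for the lists. Within the span of each of the 5 genes, no peak of another gene ID lay on either strand in either list.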

How the data were processed

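MSI2 CLIP-seq peak lists of both NB4 replicates were used as deposited. The submitters' processing notes name the tools STAR 2.3.0e, Bowtie 1.0.0 and cutadapt and the build hg19. Per the names of the lists, poly(A) and adapters were trimmed and duplicates removed. Peaks were listed per replicate. The peak caller, its settings and any correction for the number of peaks are not stated in the sources. The lists carry the authors' deposited p-value for every peak, which serves only to describe, rank or filter peaks within a list. Library totals are not given, so the depth is unknown and tally sums are not depth.

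Members and lists were chosen with earlier results of these data known. Overlaps, shares with 95% Wilson intervals and positions were computed with matplotlib 3.10.9, SciPy 1.17.1, pandas 2.3.3 and NumPy 2.4.6 under Python 3.11.15. The overlap step was tried on the real replicate 1 list with planted, slightly lengthened copies of some peaks, and recovered 200 of 200 among 25920 peaks. Each copy covered its source peak whole, so this recovery does not cover partial overlaps. All 5 members are named with every peak accounted for, with the 3 IDs most like IREB2. All 5 symbols lie on the chromosome that RefSeq (GRCh38.p14) gives. That table holds 0 Ensembl IDs, so the planned lists of other iron genes, ferritin pseudogenes and cell type markers, the motifs and the sequences under peaks were not analysed here. Alternatives changed the overlap rule, the strength of peaks, merging, gene matching and the replicates used.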

Additional observations from a re-analysis of the deposited data

How the results depend on the processing

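Of 63 recomputed values, 44 stayed within the margin set for them (1.5 times for counts, 1 SD of the replicates' values for positions, which the replicate 2 value itself sets) and 19 did not. The 44 include the values of FTL that stayed at 0. They also include some values from a single replicate, which count all its peaks and not shared ones. The number 44 is therefore no measure of how firm the results are. The alternatives were a reciprocal overlap of 50%, midpoints within 50 nt, extension by 100 nt, matches under the same gene ID, merging within 50 nt, stronger lists and single replicates. Under the first 5 of these the counts of shared peaks stayed within the margin for every gene, at 9 to 18 for IREB2 and 6 to 9 for TFRC. Shorter lists can lower these counts but not raise them, and TFRC kept 9 with the stronger 50% by p and with a tally of 5 or more. With the stronger 50% by p IREB2 had 5 shared peaks. With a tally of 5 or more it had 4, and the 5 genes together 15. With the strongest 10% by p IREB2 had 1, TFRC 5, FTH1 0 and the 5 genes 7. Without one replicate, all peaks of the remaining list count, which gave 16 to 21 for IREB2, 2 to 6 for ACO1, 14 to 16 for TFRC, 2 to 3 for FTH1, 0 to 1 for FTL and 36 to 45 for all 5. The IREB2 shared median position was 0.83 with replicate 2 and with reciprocal overlap, and 0.95 with a tally of 5 or more. No paired analysis was possible because both samples belong to 1 group. If tallies are reads, 31 of the 37 IREB2 peaks rest on fewer than 10 fragments, which limits what 1 missing peak can show.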
